A study of Saccharomyces cerevisiae with 48 samples.

Results

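The genes described here are 10 genes of the mitotic exit pathway of budding yeast (Saccharomyces cerevisiae), taken by their ORF names and not by a cutoff on any measured value. Earlier results of these data were known when they were chosen. They are LTE1 (YAL024C), BFA1 (YJR053W), BUB2 (YMR055C), TEM1 (YML064C), CDC15 (YAR019C), DBF20 (YPR111W), MOB1 (YIL106W), CDC14 (YFR028C), NET1 (YJL076W) and SPO12 (YHR152W). Read counts covered 4 of them, MOB1, CDC14, NET1 and SPO12, among 3301 counted genes. The other 6 were measured only in a table of pooled mRNA levels, which held all 10 members among its 6713 ORFs.

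Mitotic exit is the step in which a cell that has separated its chromosomes inactivates mitotic cyclin-dependent kinase, divides and returns to G1. In budding yeast the GTPase Tem1, at the spindle pole, is held back by the GTPase-activating pair Bfa1 and Bub2 and favoured by Lte1. Active Tem1 turns on the kinase Cdc15, which turns on the kinases Dbf2 and Dbf20 bound to Mob1. The end of the chain is the phosphatase Cdc14, which Net1 holds in the nucleolus until anaphase, when it is set free to undo phosphorylation by the cyclin-dependent kinase. Spo12 acts in a parallel pathway that frees a first wave of Cdc14 in early anaphase.

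The cells were of the diploid laboratory strain BY4743, grown in rich glucose medium (YPD) at 30 °C with no drug, mutation or other treatment set against a control. Centrifugal elutriation gave small unbudded G1 cells, which were left to grow and were taken at 8 cell sizes, 40, 45, 50, 55, 60, 65, 70 and 75 fl. Cells of 1 size from several elutriations were pooled, and 3 such pools per size were made as replicates A, B and C, each giving 1 poly(A) mRNA library and 1 library of ribosome footprints, the fragments that ribosomes shield from nuclease. In what follows the late sizes are 65, 70 and 75 fl (9 libraries per assay) and the early sizes are 40 and 45 fl (6 libraries). Size stands in for cell cycle position, so a pool mixes cells that need not be at 1 stage, and more cells of a stage cannot be told apart from more RNA per cell. Levels are relative to the counted reads of a library, scaled by a normalization factor, so they are relative levels and not molecules per cell. None of 12 haploid mating genes (0 of 12) was among the 3301 counted genes of this diploid, where the pooled mRNA table held 6713 ORFs. Many other genes were also without counts, so this absence does not test the cell type.

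The mRNA libraries held 248840 to 5797532 counted reads and the footprint libraries 26360 to 5659096, with 6 of the 24 footprint libraries under 150000. Every counted gene had at least 10 reads in every mRNA library, so a gene that was low in the smallest library, 40 fl replicate B, is not in the count table. SPO12 had exactly 10 reads there, NET1 13, CDC14 16 and MOB1 18. The footprint libraries of replicate A stood apart from those of B and C in how footprint slopes compared with mRNA slopes. Of the 642 genes whose mRNA rose along size, 19.2% had a positive footprint slope in replicate A, against 80.8% in replicate B and 54.7% in replicate C. Of the 731 genes whose mRNA fell, 10.8% had a negative footprint slope in replicate A, 84.0% in B and 88.0% in C. Over all 3301 counted genes 1737 had a positive footprint slope in A, 1687 in B and 1170 in C. The 6 libraries under 150000 reads are 50 and 65 fl of B and 50, 60, 65 and 70 fl of C. Footprint results are therefore given with and without replicate A, and the source of the difference was not tested. Replicate A was singled out by this comparison with mRNA, in which SPO12, MOB1, NET1 and CDC14 are among the 642 genes, so a likeness of footprints and mRNA without it is no independent evidence.

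The mRNA of all 4 counted members rose with cell size, by very different amounts. SPO12 rose most, 7.72-fold at the late sizes relative to the early ones, followed by MOB1 with 2.71-fold, NET1 with 1.71-fold and CDC14, the phosphatase itself, with 1.35-fold. Counts were tested with edgeR's quasi-likelihood test, with Benjamini-Hochberg adjustment over all 3301 genes and a call at an adjusted p under 0.05. By the slope along size (log2 per 5 fl) 4 of 4 members were called higher, where 19.4% of all counted genes were called higher, 22.1% lower and 41.6% either way. By the late minus early contrast 4 of 4 were called higher as well, against 21.1% of all genes. The F-test across the 8 sizes called 3 of 4, all but CDC14, against 26% of all genes. The median slope of the 4 was 0.19 log2 per 5 fl beside -0.003 over all counted genes. Since the members were chosen with earlier results of these data known, these shares are a description and no independent evidence.

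SPO12, on chromosome VIII (401434 to 401955, build R64), encodes the small nucleolar regulator of the early release of Cdc14. Its mRNA stood at 28.7, 43.1 and 43.2 CPM (reads scaled to equal library totals) in replicates A, B and C at 40 fl, at 48.7, 30.5 and 25.0 CPM at 45 fl, and at 44.7, 46.3 and 43.0 CPM at 50 fl. At 55 fl it stood at 158, 115 and 130 CPM, and at 60 fl at 285, 141 and 112 CPM. All 3 libraries at 55 fl lay above all 9 libraries of the smaller sizes. The level then reached 162, 254 and 285 CPM at 65 fl, 235, 179 and 377 CPM at 70 fl and 263, 327 and 412 CPM at 75 fl. On the log2 CPM scale the late libraries ran between 7.35 and 8.69 (median 8.04) and the early ones between 4.68 and 5.62 (median 5.20), with no overlap, a separation found upward in 5.39% of counted genes.

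Ordered by mean level the sizes of SPO12 ran 45, 40, 50, 55, 60, 65, 70 and 75 fl. Of the 7 steps between neighbours in that order, 6 were smaller than the larger of the neighbouring SDs. The exception was the step between 50 fl (5.50 ± 0.05 log2 CPM, SD, n = 3) and 55 fl (7.06 ± 0.23), a difference of 1.56 log2. The lowest mean was 5.09 ± 0.49 at 45 fl and the highest 8.36 ± 0.32 at 75 fl. The slope was 0.53 log2 per 5 fl (SE 0.05, edgeR adjusted p = 1.07e-08), at the 99.9 percentile of all counted genes, and the late minus early difference was 2.95 log2 (SE 0.25, edgeR adjusted p = 1.49e-08). Fitted within each replicate, the slope was 0.47 in A, 0.48 in B and 0.60 in C. Without the 40 fl replicate B library, where SPO12 had 10 reads, the difference was 2.99 log2 (SE 0.28, edgeR adjusted p = 1.4e-07).

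**Figure D1:**
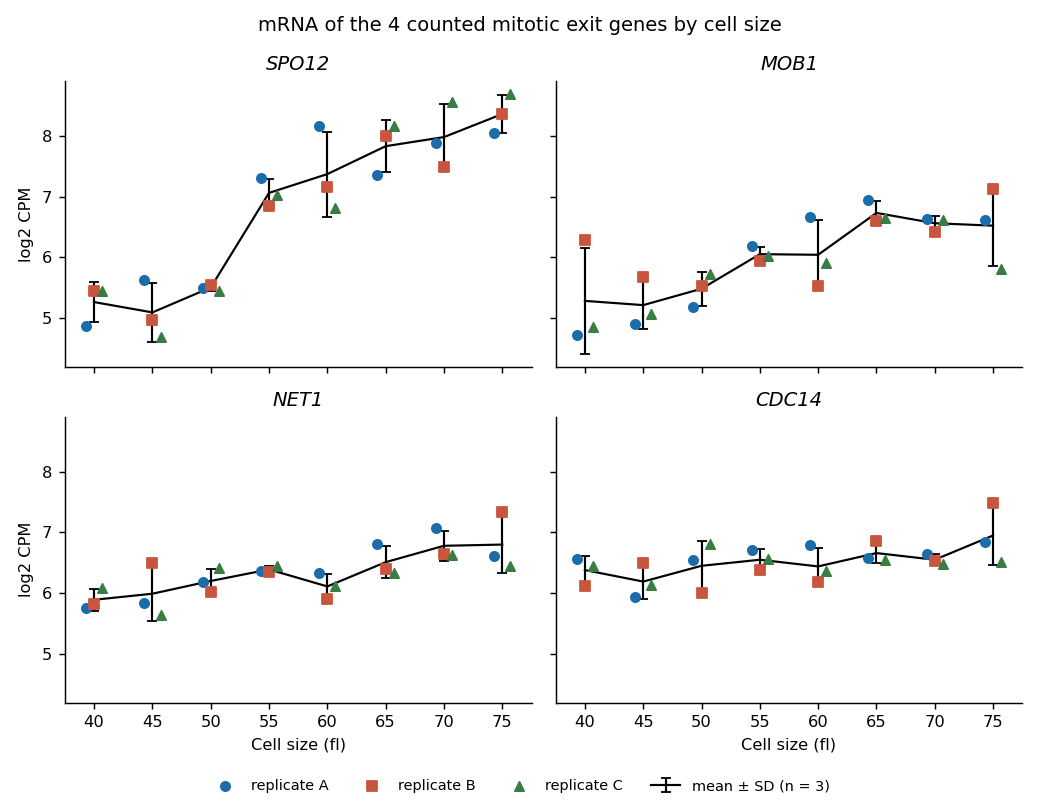
mRNA level (log2 CPM, vertical axis) against cell size in fl (horizontal axis) for SPO12, MOB1, NET1 and CDC14. Each point is 1 library of replicate A, B or C, and the line with bars is the mean ± SD of 3 libraries. SPO12 steps up between 50 and 55 fl, with means of 5.50 and 7.06, and MOB1 reaches its highest mean of 6.73 at 65 fl, while the highest CDC14 mean is 6.95 at 75 fl.

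NET1, on chromosome X (295245 to 298814), encodes the nucleolar protein that binds and inhibits Cdc14. Its mRNA was 53.5, 56.0 and 67.7 CPM in replicates A, B and C at 40 fl, 56.8, 89.8 and 49.1 CPM at 45 fl, 71.7, 64.1 and 84.5 CPM at 50 fl and 82.1, 81.1 and 86.1 CPM at 55 fl. It was 79.8, 59.2 and 68.4 CPM at 60 fl, 111, 83.5 and 79.8 CPM at 65 fl, 134, 100 and 98.1 CPM at 70 fl and 97.2, 161 and 87.0 CPM at 75 fl. The highest library was 75 fl replicate B and the lowest 45 fl replicate C. Of its 7 steps between neighbouring size means only that between 65 fl (6.51 ± 0.26) and 70 fl (6.78 ± 0.25) was above the larger SD, by 0.27 against 0.26 log2. Late libraries ran between 6.33 and 7.34 log2 CPM (median 6.62) and early ones between 5.64 and 6.50 (median 5.83), so the groups overlapped, with 6 of the 9 late libraries above every early one. The slope was 0.14 log2 per 5 fl (SE 0.03, edgeR adjusted p = 0.000257) and the late minus early difference 0.78 log2 (SE 0.17, edgeR adjusted p = 0.000919). Its slope was positive in each replicate (0.17, 0.14 and 0.08), as it was in 29.9% of counted genes. The test across the 8 sizes, with a range of 0.91 log2, gave an edgeR adjusted p of 0.0268, and this call was lost under limma-voom (adjusted p = 0.0587), without replicate A (0.172), B (0.0744) or C (0.189), and without 70 fl replicate A (0.0579), where the range itself was 0.909 to 1.234 log2.

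CDC14, on chromosome VI (208413 to 210068), encodes the phosphatase at the end of the pathway, and its mRNA varied least of the 4. It was 93.9, 68.9 and 86.5 CPM in replicates A, B and C at 40 fl, 60.7, 89.0 and 69.8 CPM at 45 fl, 92.5, 63.2 and 111 CPM at 50 fl and 104, 82.4 and 94.0 CPM at 55 fl. It was 110, 72.2 and 81.3 CPM at 60 fl, 95.1, 115 and 93.2 CPM at 65 fl, 100, 91.8 and 88.7 CPM at 70 fl and 114, 178 and 91.4 CPM at 75 fl. The highest library was 75 fl replicate B with 178 CPM, and the next highest held 115 CPM. No step between neighbouring size means exceeded the larger SD, with means between 6.19 ± 0.28 log2 CPM at 45 fl and 6.95 ± 0.49 at 75 fl (SD, n = 3). Late libraries ran between 6.48 and 7.48 (median 6.58) and early ones between 5.94 and 6.56 (median 6.29), which overlap.

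The slope of CDC14 was 0.08 log2 per 5 fl (SE 0.03, edgeR adjusted p = 0.0192) and its late minus early difference 0.44 log2 (SE 0.17, edgeR adjusted p = 0.0367). The F-test across sizes was not passed (range 0.76 log2, edgeR adjusted p = 0.237). Both calls of CDC14 were close to the threshold. The slope was no longer called without replicate A (adjusted p = 0.057) or B (0.208), without 75 fl replicate B (0.0776), or without the 45 fl (0.0919) or the 75 fl libraries (0.135), with values that ran from 0.05 without replicate B to 0.095 without A. The late minus early call was lost under limma-voom (adjusted p = 0.0517), without replicate A (0.119), B (0.0788) or C (0.0869), and without 1 library, which could be 40 fl B (0.0756), 45 fl A (0.0925), 45 fl C (0.052), 65 fl B (0.064), 70 fl A (0.0591) or 75 fl B (0.0593). The differences in these fits ran from 0.365 without 75 fl B to 0.557 without replicate C, so part of the lost calls had an estimate as large as the full 0.44 but fewer libraries.

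MOB1, on chromosome IX (166415 to 167444), encodes the partner protein that the kinases Dbf2 and Dbf20 need for activity. Its mRNA was 25.7, 77.5 and 28.2 CPM in replicates A, B and C at 40 fl, where the high value in replicate B rests on 18 reads, 29.3, 50.1 and 33.0 CPM at 45 fl, and 35.6, 45.4 and 52.5 CPM at 50 fl. It was 71.8, 60.8 and 64.4 CPM at 55 fl and 102, 45.5 and 59.3 CPM at 60 fl. Replicate B was thus highest at the 2 smallest sizes and lowest at 55 and 60 fl. The level was 123, 95.7 and 99.5 CPM at 65 fl, 98.4, 84.9 and 98.1 CPM at 70 fl and 97.9, 139 and 55.3 CPM at 75 fl. Late libraries ran between 5.81 and 7.13 log2 CPM (median 6.62) and early ones between 4.72 and 6.29 (median 4.99), with 8 of the 9 late libraries above every early one. The highest size mean was 6.73 ± 0.19 at 65 fl, against 6.56 ± 0.12 at 70 fl and 6.52 ± 0.67 at 75 fl, which do not differ beyond their SDs.

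The slope of MOB1 was 0.25 log2 per 5 fl (SE 0.04, edgeR adjusted p = 2.75e-05, 98.6 percentile of counted genes) and was positive in each replicate (0.33, 0.15 and 0.20). The late minus early difference was 1.44 log2 (SE 0.24, edgeR adjusted p = 7.09e-05), and without 40 fl replicate B it was 1.66 log2 (SE 0.23, edgeR adjusted p = 1.44e-05). Across the 8 sizes its range of 1.52 log2 passed (edgeR adjusted p = 0.00401), but not without replicate A (range 1.253, adjusted p = 0.0564) or C (range 1.62, adjusted p = 0.114).

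Per kilobase of gene span, which allows levels to be set side by side between genes, SPO12 mRNA went through mean CPM per kb of 73.4, 66.5, 85.6, 257, 343, 448, 505 and 640 from 40 to 75 fl. MOB1, whose span of 1030 bp includes its intron, went through 42.5, 36.4, 43.2, 63.7, 66.8, 103, 91.0 and 94.7 CPM per kb. The corresponding means of CDC14 lay between 44.2 (45 fl) and 77.3 (75 fl), and those of NET1 between 16.5 (40 fl) and 32.2 (75 fl). At 40 and 45 fl the mRNAs of SPO12, CDC14 and MOB1 were thus within 2-fold of each other per kb, and NET1 was the lowest of the 4 at every size. Over all libraries SPO12 stood at the 71.9 percentile of the 3260 counted genes with a known length, MOB1 at 35.2, CDC14 at 31.9 and NET1 at 7.15.

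Ratios between members within the same library do not depend on library size, and all 6 pairs were compared between the 9 late and 6 early libraries, a comparison chosen after the levels had been seen. Each test was a two-sided exact permutation test over the 15 libraries, whose smallest possible p is 0.0004, adjusted over the 6 pairs. The SPO12 to CDC14 ratio was 1.34 ± 0.51 log2 in late and -1.11 ± 0.55 in early libraries (SD, n = 9 and 6), a difference of 2.45 (exact permutation, adjusted p = 0.0012). All 9 late libraries lay above all early ones. The SPO12 to NET1 ratio differed by 2.14 (adjusted p = 0.0012) and the SPO12 to MOB1 ratio by 1.53 (adjusted p = 0.0024, exact permutation both). Relative to MOB1, CDC14 mRNA was lower late, 0.12 ± 0.32 against 1.04 ± 0.70, a difference of -0.92 (exact permutation, adjusted p = 0.012).

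The ratio of the phosphatase gene to that of its nucleolar inhibitor, CDC14 to NET1, was 0.03 ± 0.27 log2 in late and 0.34 ± 0.30 in early libraries. Its difference of -0.31 did not pass (exact permutation, adjusted p = 0.0563), but passed without 65 fl replicate B (0.0288) or 45 fl replicate B (0.0336). The NET1 to MOB1 difference of -0.60 passed (exact permutation, adjusted p = 0.035) and no longer did without any 1 of 6 libraries, 65 fl A and C, 40 fl A and C, and 45 fl A and B, where the adjusted p lay between 0.0513 and 0.0839. The unequal rise of the 4 mRNAs therefore rests on SPO12 against the other 3 and on MOB1 against CDC14.

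**Figure D2:**
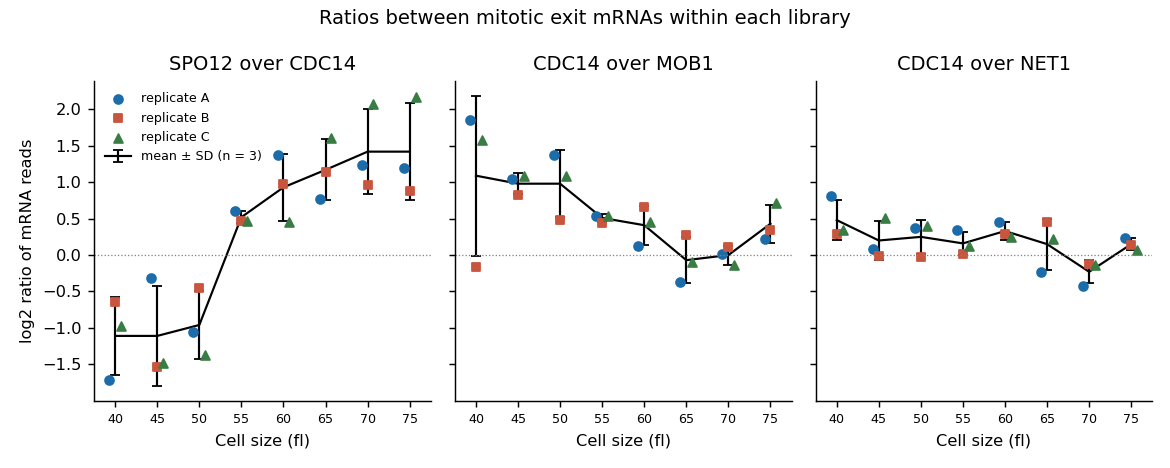
Log2 ratio of mRNA reads of pairs of members within 1 library (vertical axis) against cell size in fl (horizontal axis), for SPO12 over CDC14, CDC14 over MOB1 and CDC14 over NET1. Points are libraries of replicates A, B and C and the line with bars is the mean ± SD (n = 3). The SPO12 ratio changes sign between 50 fl (mean -0.96) and 55 fl (mean 0.52), whereas the CDC14 over NET1 means stay between -0.23 and 0.48.

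The count tables were also searched for genes whose 8 mRNA size means ran most like those of each member called across sizes. These correlations over 8 points are a description, since the points share libraries, and many genes reach high values. For SPO12 they were ALK1, a mitotic protein kinase gene, with r = 0.988, EXG1, a cell wall glucanase gene, with r = 0.983, and HOM2, of threonine and methionine synthesis, with r = 0.980. For MOB1 they were MYO1, the myosin of the cytokinetic ring, with r = 0.989, ASE1, a spindle midzone protein, with r = 0.988, and MNT2, a mannosyltransferase, with r = 0.985. For NET1 they were ARO1, of aromatic amino acid synthesis, and CWH43, of lipid remodelling of membrane anchors, both with r = 0.975, and TUS1, an activator of the GTPase Rho1, with r = 0.972. The number of genes with r above 0.9 was 118 for SPO12, 121 for MOB1 and 47 for NET1.

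For the members without counts the authors' deposited table of pooled replicates was used, whose values are log2 mRNA levels set against each gene's own average over the 8 sizes, with no error and hence no test. The median ORF of that table was itself at -0.298 at 45 fl and at 0.148 at 70 fl, so values below are relative to the median ORF at the same size. The late minus early difference was above 0 in 10 of 10 members, against 52.1% of the 6383 ORFs with all 8 values, above 0.5 in 7 of 10 against 24.7%, and above 1 in 4 of 10 against 9.18%. The median member had 0.882, or 0.882 among the 6 without counts, beside 0.034 over all ORFs. All 10 were highest at 65, 70 or 75 fl, as were 2482 of the 6383. These shares too describe members chosen with earlier results known.

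Among the regulators of Tem1, LTE1 varied most. It was at -0.593, -1.417, -0.590, 0.018, 0.060, 0.332, 0.738 and 0.422 from 40 to 75 fl, which made it lowest at 45 fl and highest at 70 fl, with a late minus early difference of 1.50. BFA1 was at -0.374, -0.828, -0.442, 0.244, 0.040, 0.323, 0.728 and -0.154, a difference of 0.90, and its partner BUB2 at -0.266, -1.0, 0.128, -0.060, 0.281, 0.131, 0.370 and 0.194, a difference of 0.865. The 2 genes of this inhibitor pair shared their lowest size, 45 fl, and their highest, 70 fl, with each other and with LTE1. At 75 fl BFA1 but not BUB2 or LTE1 was below 0. TEM1, the GTPase gene, was at -0.935, -0.617, 0.106, 0.196, 0.209, 0.175, 0.031 and 0.556, lowest at 40 fl and highest at 75 fl, with a difference of 1.03. The gene of the GTPase and those of its activator and inhibitors were thus all lower at 40 and 45 fl than at the late sizes.

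Of the kinase genes, CDC15 varied least between late and early sizes, by 0.113. It was at 0.249, -0.054, -0.035, -0.149, -0.609, 0.092, 0.337 and 0.203 from 40 to 75 fl, lowest at 60 fl. DBF20 was at 0.042, -0.562, -0.113, 0.002, 0.018, 0.326, -0.002 and 0.341, a difference of 0.482. MOB1, by contrast, had a pooled difference of 1.58, close to the 1.44 of its counts. The pooled differences of the other counted members were 2.78 for SPO12, 0.721 for NET1 and 0.292 for CDC14, in the same order as in the counts (2.95, 0.78 and 0.44). How the pooled table relates to the counted libraries is not given, so this likeness cannot count as a second measurement. After centring, 5 of 10 members (LTE1, BFA1, BUB2, DBF20 and CDC14) were lowest at 45 fl, against 14.7% of all ORFs, and on the values as deposited 5 of 10 were, against 30.9%.

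**Figure D3:**
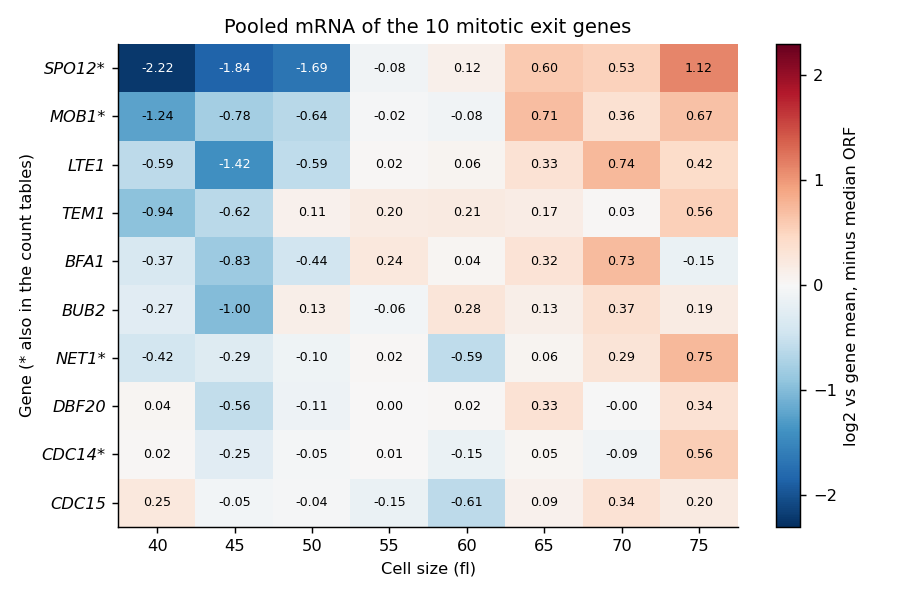
Pooled mRNA of the 10 members (rows) at 8 cell sizes in fl (columns), from the authors' deposited log2 levels set against each gene's own average, minus the median ORF at that size. Colour and number in each cell give that log2 value and stars mark genes that also have read counts. SPO12 spans -2.22 at 40 fl to 1.12 at 75 fl, and CDC15 stays between -0.61 and 0.34.

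Ribosome footprints gave no call for any of the 4 members when all 3 replicates were used. By edgeR 0 of 4 were called for a slope, where 0% of all counted genes were called, and 0 of 4 across sizes, against 0.515% of genes. At an unadjusted p under 0.05 the slope test had 199 of the 3301 genes and none of the members, and DESeq2 and limma-voom called 0 genes as well. The footprint slopes were 0.19 log2 per 5 fl for SPO12 (SE 0.11, edgeR adjusted p = 0.722), 0.08 for MOB1 (SE 0.06, edgeR adjusted p = 0.755) and 0.04 for CDC14 (SE 0.05, edgeR adjusted p = 0.851). For NET1 the approximate 95% interval of the slope ran from -0.14 to 0.14. These misses do not show that footprints stayed level: the interval for SPO12 ran from -0.03 to 0.40 and that for MOB1 from -0.04 to 0.20.

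SPO12 had few footprint reads, 513 in all, against 11106 mRNA reads. From 40 to 75 fl they numbered 35, 36, 24, 19, 1, 7, 1 and 4 in replicate A, which is 32.9 CPM at 40 fl and 3.18 CPM at 75 fl. In replicate B they numbered 5, 3, 3, 24, 20, 2, 35 and 70, or 4.43 CPM at 40 fl and 49.3 CPM at 75 fl. In replicate C they numbered 18, 0, 0, 94, 1, 1, 2 and 108, or 3.94 CPM at 40 fl and 49.3 CPM at 75 fl. Replicates B and C thus went up along size and replicate A went down. The 0 at 45 fl replicate C is of 2120525 reads and allows up to 1.415 CPM (3 counts, counting error only), while the 0 at 50 fl replicate C is of 54111 reads and allows up to 55.4 CPM.

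Within replicates the footprint slope of SPO12 was -0.45 in A, 0.42 in B and 0.73 in C, with 0 reads entered at 0.57 log2 CPM. The slope over all libraries moved with each replicate left out. It was 0.56 log2 per 5 fl without A (SE 0.10, edgeR adjusted p = 0.000203), 0.05 without B (SE 0.14, edgeR adjusted p = 1.0) and 0.04 without C (SE 0.12, edgeR adjusted p = 0.999). Without A 8.82% of all counted genes were called higher, SPO12 also passed across sizes (edgeR adjusted p = 0.00105), and the 3 other members were not called. Since A was set aside for its footprints running against mRNA, this call is a description. Without the 6 libraries under 150000 reads, but with replicate A, the slope of SPO12 was 0.19 (SE 0.12, edgeR adjusted p = 0.62).

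The footprint slopes of the other members fitted within replicates had no common sign, but libraries with 0 reads entered these fits at 0.57 log2 CPM. Without replicate A the slopes were 0.14 for MOB1 (SE 0.07, edgeR adjusted p = 0.161), 0.06 for CDC14 (SE 0.07, edgeR adjusted p = 0.572) and 0.02 for NET1 (SE 0.08, edgeR adjusted p = 0.878). With replicate A but without the 6 libraries under 150000 reads they were 0.09 for MOB1 (SE 0.05, edgeR adjusted p = 0.62), 0.02 for CDC14 (SE 0.03, edgeR adjusted p = 0.809) and 0.03 for NET1 (SE 0.04, edgeR adjusted p = 0.702). The slopes in replicates A, B and C were -0.11, 0.26 and -0.17 for MOB1, -0.09, 0.12 and -0.34 for NET1, and -0.06, 0.09 and 0.09 for CDC14. MOB1 had no footprint read in 5 libraries and NET1 in 1, all of them among the 6 libraries under 150000 reads, where 3 counts are 25.8 CPM or more. CDC14 had at least 1 footprint read in every library. Late footprint libraries of CDC14 ran between 5.40 and 6.69 log2 CPM (median 6.26) and early ones between 5.74 and 6.19 (median 6.06). No member had late and early footprint libraries without overlap, and upward such a separation was found in 0% of all counted genes.

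**Figure D4:**
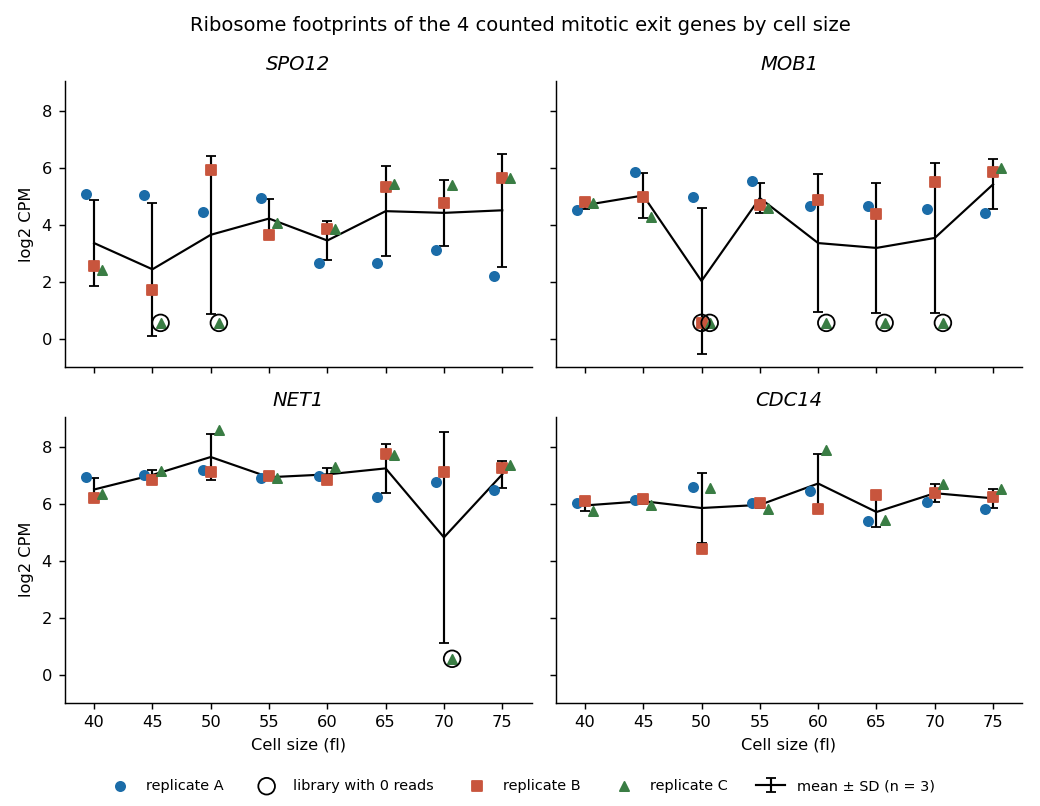
Footprint level (log2 CPM, vertical axis) against cell size in fl (horizontal axis) for the 4 counted members, with points for replicates A, B and C, circles around libraries with 0 reads, and mean ± SD (n = 3). For SPO12 replicate A lies above B and C at 40 fl (5.10 against 2.56 and 2.44) and below them at 75 fl (2.22 against 5.67 in both).

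Footprints relative to mRNA, or translational efficiency, given as the difference of the log2 CPM of both libraries made from 1 pool, differed widely between the 4 members. Over the 18 pools whose footprint library had at least 150000 reads it was 0.53 ± 0.55 for NET1, -0.45 ± 0.41 for CDC14, -0.94 ± 0.89 for MOB1 and -3.09 ± 1.58 for SPO12 (SD over pools). The median gene averaged -1.20 over the same pools. Among all counted genes NET1 stood at the 81.9 percentile, CDC14 at 66.3, MOB1 at 56.0 and SPO12 at 11.9. NET1 and CDC14 were above the median gene in all 18 pools, and SPO12 was below it in 15 of 18. The highest value of SPO12, 0.23, was at 40 fl replicate A. In the 10 of these pools that are not of replicate A, the values were 0.59 ± 0.45 for NET1, -0.40 ± 0.38 for CDC14, -0.83 ± 0.55 for MOB1 and -3.11 ± 0.40 for SPO12, which was below the median gene in 10 of 10.

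A change of translational efficiency along size was tested in 1 model of all 48 libraries, by the term in which the slope differs between assays. By edgeR 0 of 4 members were called, as were 0% of all counted genes. At an unadjusted p under 0.05 there were 420 genes, 3 of the members among them. This fit did not pair the libraries of a pool. With the pool as a block there were 329 genes, and SPO12 was the 1 member among them (edgeR unadjusted p = 0.042). DESeq2, without the block, called 127 genes, none of them a member, and limma-voom 0. The slope of SPO12 was -0.33 log2 per 5 fl (SE 0.12, edgeR adjusted p = 0.22), at the 0.515 percentile of all genes. It was -0.16 for MOB1 (SE 0.07, adjusted p = 0.334), -0.13 for NET1 (SE 0.06, adjusted p = 0.375) and -0.05 for CDC14 (SE 0.05, adjusted p = 0.776). All 4 values were negative, beside a median of -0.001 over all counted genes. Without replicate A 0 of the 4 members had an unadjusted p under 0.05, where 442 of the 3301 genes had and 28 were called. The median slope over all genes was -0.038 in that fit. The slope without replicate A was -0.01 for SPO12 (SE 0.15, edgeR adjusted p = 0.99), -0.05 for MOB1 (SE 0.08, edgeR adjusted p = 0.815), -0.09 for NET1 (SE 0.08, edgeR adjusted p = 0.678) and -0.04 for CDC14 (SE 0.07, edgeR adjusted p = 0.845). Without B or C that of SPO12 was -0.48 (edgeR adjusted p = 0.175) and -0.45 (edgeR adjusted p = 0.186). Without the 6 libraries under 150000 reads it was -0.33 (SE 0.13, edgeR adjusted p = 0.148).

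**Figure D5:**
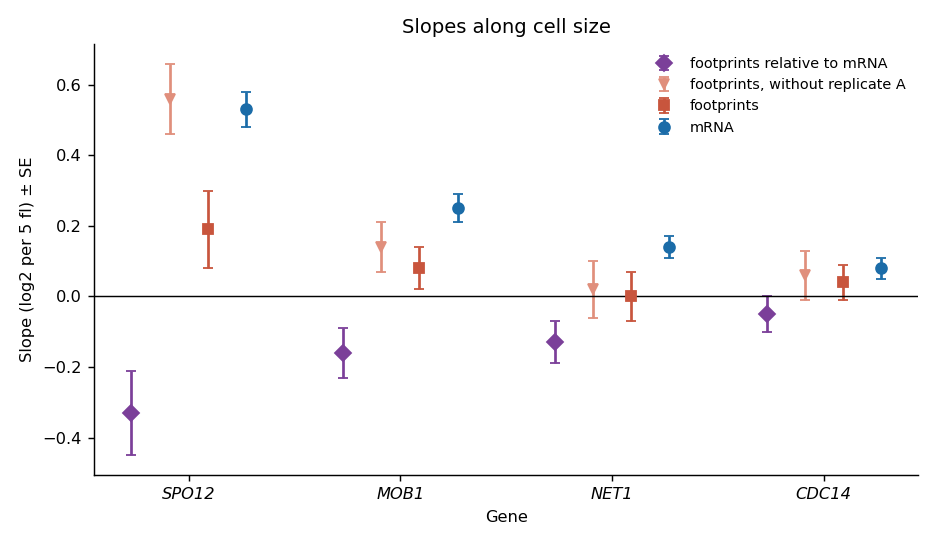
Slope along cell size (log2 per 5 fl ± SE, vertical axis) of footprints relative to mRNA, of footprints without replicate A, of footprints in all replicates and of mRNA, for SPO12, MOB1, NET1 and CDC14. For SPO12 the footprint slope is 0.19 with and 0.56 without replicate A, beside 0.53 for mRNA.

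Further genes of the pathway were taken from 2 lists made by role. The first held 24 regulators of mitotic exit, such as the kinases, spindle pole proteins and nucleolar proteins around Cdc14. Of these 13 were counted, of which the mRNA of 5 rose and of 1 (CLA4) fell along size, beside the 19.4% and 22.1% of all genes, with a median slope of 0.06. The 3 with the smallest p were BMH1, a 14-3-3 protein gene, at 0.20 log2 per 5 fl (SE 0.04, edgeR adjusted p = 0.000216), ZDS1, a regulator of the phosphatase PP2A, with 0.14 (SE 0.03, 0.00121), and SPC72, of the outer spindle pole body, with 0.11 (SE 0.03, 0.00593). The slopes of all 3 lay below that of MOB1 and far below that of SPO12, but this ranking covers counted genes only. In the pooled table the late minus early differences of the 24 ran from -0.608 (CSM1) to 3.446 (AMN1), both not counted. SPO12 had 2.78 there and MOB1 1.58, so the counted genes do not hold the strongest rise of the pathway.

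The second list held 17 genes of mitosis, mitotic exit and cytokinesis, and only 3 were counted. It includes the mitotic cyclin genes CLB1 and CLB2, CDC20, the transcription factors that Cdc14 activates, and proteins of cytokinesis. SIC1, the inhibitor of cyclin-dependent kinase made as cells leave mitosis, rose by 0.44 log2 per 5 fl (SE 0.03, edgeR adjusted p = 1.78e-11) and ASE1 by 0.21 (SE 0.03, edgeR adjusted p = 3.72e-05). CDH1, an activator of the anaphase-promoting complex, was not called, at -0.02 log2 per 5 fl (SE 0.03, edgeR adjusted p = 0.526). In the pooled table the median late minus early difference was 0.613 for the 24 regulators and 1.64 for the 17 genes of the second list, of which 12 were above 1, beside 0.882 for the 10 members. The differences of the 17 ran from -0.333 (CDH1) to 6.444 (CLB1, not counted), beside 2.78 for SPO12. No gene of either list was called for footprints or translational efficiency by edgeR. Of all counted genes, 0% were called for the footprint slope, 0% for translational efficiency and 0.515% for footprints across sizes.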

How the data were processed

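The authors deposited whole-number read counts for 3301 genes in 24 mRNA and 24 footprint libraries, without normalization. Per the labels' protocols, mRNA was poly(A)-selected and footprints were made with RNase I and depleted of ribosomal RNA. Build R64 is given in the submitters' processing notes, which list, with no role for each, TopHat2 2.1.0, SAMtools 1.3-1, RSEM 1.2.20, cutadapt 1.8, bcl2fastq 2.17.1.14 and Bowtie 1.1.2. The count tables do not name their assay. It was settled with the mRNA block of a log2 table of levels per library deposited by the authors: in the table used as mRNA 24 of 24 columns lay nearest their namesake (median difference 0.0464 log2), against 4 of 24 in the other table (0.492). The other 24 columns of that log2 table were not used. The pooled log2 mRNA values, which the authors deposited per size against each gene's average, were only described. Not given in the sources used here are how that table relates to the counted libraries and how reads shared by paralogs such as SPO12 and BNS1, NET1 and TOF2 or DBF20 and DBF2, or by overlapping or antisense genes, were handled, so such values are uncertain. The deposit also has 4 unheaded lists of ORFs, which were not used; SPO12 is in that of 459 names and NET1 in that of 585. Sequences of the members were not used here.

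In edgeR 4.0.16 under R 4.3.3, counts were tested with TMM factors within each assay, by an F-test across 8 sizes, a linear slope per 5 fl, a contrast of 65 to 75 fl minus 40 and 45 fl, and an interaction of assay and slope. The low-count filter kept all genes. Levels are log2 CPM (TMM-scaled, prior count 2), as mean ± SD of n = 3, and precision is limited by the reads given with the depths. All 3 replicates are pools the labels call independent. Groups follow the assay and the size in the labels. Genes named were all members, the 3 counted genes of each pathway list with the smallest slope p, and the 3 genes most like each member called across sizes. The members, lists and tests were chosen with earlier results of these data known. The tests were checked on simulated counts.

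The alternatives tried were limma-voom (limma 3.58.1), DESeq2 1.42.0, median-of-ratios size factors, no filter, a prior count of 0.5, the footprint libraries under 150000 reads left out, each replicate, library or size left out, and a replicate block. Both libraries of a pool were made from the same cells and are paired by design. Their deviations from the size means correlated by 0.114 on average, with 13 of 24 pools above 0.1. Figures used Python 3.11.15 with matplotlib 3.10.9.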

Additional observations from a re-analysis of the deposited data

How the results depend on the processing

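The mRNA slope and the late minus early difference of SPO12, MOB1 and NET1 kept direction and call under every alternative run; the call of SPO12 across sizes did too. Slopes of SPO12 lay between 0.491 and 0.590 log2 per 5 fl, of MOB1 between 0.205 and 0.295, of NET1 between 0.121 and 0.166 and of CDC14 between 0.050 and 0.114. Where 1 replicate, library or pool was left out, 3 to 4 members were called for the mRNA slope (888 to 1436 genes), 3 to 4 for late minus early (904 to 1539 genes) and 1 to 3 across sizes (111 to 972 genes). For footprints these were 0 to 1 members across sizes (0 to 515 genes) and 0 to 1 for the slope (0 to 784 genes), and for translational efficiency 0 members (0 to 28 genes). The highest footprint counts came without replicate A.

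Over all genes, DESeq2 called 1394 mRNAs across sizes, and 52 footprints across sizes where limma-voom and the fit without libraries under 150000 reads called 0. For translational efficiency median-of-ratios size factors called 1 gene, DESeq2 127 and the fit without those libraries 55, and without the 75 fl libraries 3 genes had a footprint slope. A replicate block by letter gave 10 genes across sizes in footprints. The labels do not say that a letter marks a shared batch, and deviations of same-letter libraries correlated above 0.1 in only 39 of 84 pairs in mRNA and 34 of 84 in footprints. The letters were therefore not taken as a pairing, although the footprint correlations ran from -0.847 to 0.775 and the replicate A libraries differ from B and C as a set. With the pool as a replicate block, which pairs footprints with mRNA, the slope of translational efficiency of SPO12 was -0.262 (edgeR adjusted p = 0.48), and no call of a member changed.

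Values near 0 changed sign. The footprint slope of NET1 (-0.00) was 0.001 under limma-voom, 0.035 without 50 fl, 0.021 without 70 fl, 0.034 without the libraries under 150000 reads, and -0.073 to 0.028 where 1 library or replicate was left out. That of MOB1 was -0.006 without 75 fl and that of CDC14 -0.004 to 0.060 where a replicate was left out, lowest without replicate C. The cause was not tested. In the pooled table, values as deposited put the late minus early differences higher by the shift of the median ORF, as 3.00 for SPO12 and 0.33 for CDC15. Footprint depth limits SPO12, which had 0 to 3 reads in 10 libraries, among them the 6 under 150000 reads.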
